A study of Mus musculus with 12 samples.

Results

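The 55 genes described here encode chromatin modifiers and remodelers, and they were chosen by symbol out of 11297 genes measured in sorted mouse keratinocytes. They are the genes of the Kdm, Jmjd, Smarc, Chd, Hdac, Sirt, Dnmt, Ezh, Setd, Suv, Cbx and Brd families with a numbered symbol in the array's annotation. The donors were female mice of 9.5 weeks, and keratinocytes of their back skin were sorted for CD34, a surface marker of stem cells in the hair follicle bulge, and for ITGA6, an integrin that anchors basal cells. There were 4 groups of 3 arrays: K14ΔNLef1 CD34+ITGA6+, wild-type (WT) CD34+ITGA6+, K14ΔNLef1 ITGA6+ and WT ITGA6+, the last pair gated as negative for CD34 per the methods. K14ΔNLef1 mice carry Lef1 without its amino terminus, the region that contacts β-catenin, under the keratin 14 promoter, which is active in basal keratinocytes, so the transgene is present in both sorted populations. WT mice carry no transgene. Whether cells of several animals were pooled for an array was not given in the sources used here.

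All values are log2 intensities from an exon array on which a gene is read by several probe sets, and a gene's value is the median over its probe sets. The 55 members were read by 845 probe sets, between 1 and 38 for a member with a median of 14. Genes brighter than the median probe set on at least 3 of the 12 arrays were tested. Of the members, 42 passed and 13 did not. Differences are given with the standard error from limma, and a gene was called when its p, adjusted over all 5713 tested genes, was under 0.05. Differences run K14ΔNLef1 minus WT for genotype and CD34+ITGA6+ minus ITGA6+ for population. Precision is limited here by having 3 arrays a group, and p-values measure the spread between these arrays, which the labels call biological replicates. Because RNA was taken from sorted bulk cells, fewer cells of a kind and less RNA per cell cannot be told apart. Probes differ in brightness, so levels of different genes are not compared.

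The groups' own labels were examined first. Lef1 averaged 12.58 ± 0.09 (SD, n = 3) in K14ΔNLef1 against 6.51 ± 0.56 in WT CD34+ITGA6+ cells, and 12.65 ± 0.08 against 6.21 ± 0.21 in ITGA6+ cells. Cd34 averaged 11.40 in CD34+ITGA6+ against 5.33 in ITGA6+ cells of K14ΔNLef1 mice, and 11.81 against 5.37 in WT mice. Itga6 had lower values with the CD34+ITGA6+ gate, with differences of -0.69 ± 0.19 in K14ΔNLef1 mice (adjusted p = 0.0246) and -1.11 ± 0.19 in WT mice (adjusted p = 7.53e-04). Krt5, Krt14 and Trp63, which mark basal keratinocytes, had group means of at least 11.48 throughout. Array medians ran from 7.35 to 7.63.

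Chromatin factors act on the packaging of DNA. DNA methyltransferases write methyl groups on CpG sites, histone methyltransferases and demethylases add and remove methyl groups on histone tails, and deacetylases remove acetyl groups. Chromobox and bromodomain proteins read methylated and acetylated histones, and ATP-driven remodelers of the SWI/SNF, ISWI and CHD families move or evict nucleosomes. Dnmt1 is known to keep epidermal progenitors in cycle. In mouse skin, the Polycomb methyltransferases Ezh1 and Ezh2 are known to hold back differentiation genes and to support hair follicle growth. Lef1 and its relatives are known to recruit Groucho (Tle) corepressors, which work with histone deacetylases.

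Between populations, a few chromatin genes were called and most were not. In CD34+ITGA6+ cells, Dnmt1, Ezh2, Kmt5a, Cbx5 and Brd9 were lower than in ITGA6+ cells in at least 1 genotype, and Smarca2 was higher. In K14ΔNLef1 mice, 3 of the 42 tested members were called (7.14%), all lower in CD34+ITGA6+ cells, beside 12.9% of all tested genes, 8.30% lower and 4.62% higher. In WT mice, 5 of 42 were called (11.9%), 4 lower and 1 higher, beside 17.2% of all genes, 11.5% lower and 5.71% higher. At an unadjusted p under 0.05 the members were 12 in K14ΔNLef1 (28.6%, against 26.4% of all genes) and 9 in WT mice (21.4%, against 29.9%). How the members' share stood to that of all genes depended on the summary of probe sets and on single arrays. With the mean over probe sets as a gene's value, 8 members were called in each genotype (19.0%), beside 17.1% of all genes in K14ΔNLef1 and 22.6% in WT mice. Without WT CD34+ITGA6+ replicate 1 the shares were 14.3% of members and 13.5% of all genes in K14ΔNLef1 mice, and 7.14% and 14.8% in WT mice. Without K14ΔNLef1 CD34+ITGA6+ replicate 1, 5 members (11.9%) and 12.4% of all genes were called in K14ΔNLef1 mice, and without WT ITGA6+ replicate 2, 3 members (7.14%) and 13.1% of all genes in WT mice. Without K14ΔNLef1 CD34+ITGA6+ replicate 2, the K14ΔNLef1 comparison called 2 members and 479 of all genes in place of 738, and without K14ΔNLef1 ITGA6+ replicate 1 or 3 it also called 2. Their median difference was -0.23 in K14ΔNLef1 and -0.20 in WT mice, beside -0.15 and -0.17 over all tested genes. These overall medians move with the scaling of the arrays, to -0.07 and -0.08 when each array was centred on its own median, where the members' medians were -0.15 and -0.11. Groups did not overlap for 16 members in K14ΔNLef1 mice (38.1%, against 31.9% of all genes, 22.8% lower and 9.12% higher) and for 13 in WT mice (31.0%, against 31.8%, 22.4% lower and 9.45% higher). Of these members only Smarca2 was higher in CD34+ITGA6+ cells, in both genotypes.

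Dnmt1, the maintenance methyltransferase that copies CpG methylation onto new DNA strands, gave the lowest p of the members in both genotypes. It measured 9.0, 8.83 and 9.05 in CD34+ITGA6+ cells against 9.97, 10.04 and 10.30 in ITGA6+ cells of K14ΔNLef1 mice. In WT mice it measured 8.96, 8.72 and 9.04 in CD34+ITGA6+ cells against 9.59, 10.18 and 10.03 in ITGA6+ cells. Every CD34+ITGA6+ array lay below every ITGA6+ array of its genotype. The difference was -1.14 ± 0.19 in K14ΔNLef1 mice, or 2.20-fold lower (adjusted p = 0.00116), and -1.03 ± 0.19 in WT mice, or 2.04-fold lower (adjusted p = 0.00176). Of its 38 probe sets, 36 were lower in K14ΔNLef1 and 37 in WT CD34+ITGA6+ cells, so the difference did not rest on a few probe sets. Dnmt3a, which sets new methylation, differed by -0.38 ± 0.19 in K14ΔNLef1 and -0.16 ± 0.19 in WT mice, and neither passed the test. Dnmt3b and its cofactor Dnmt3l were not tested, with group means of at most 7.16 and 6.64.

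**Figure D1:**
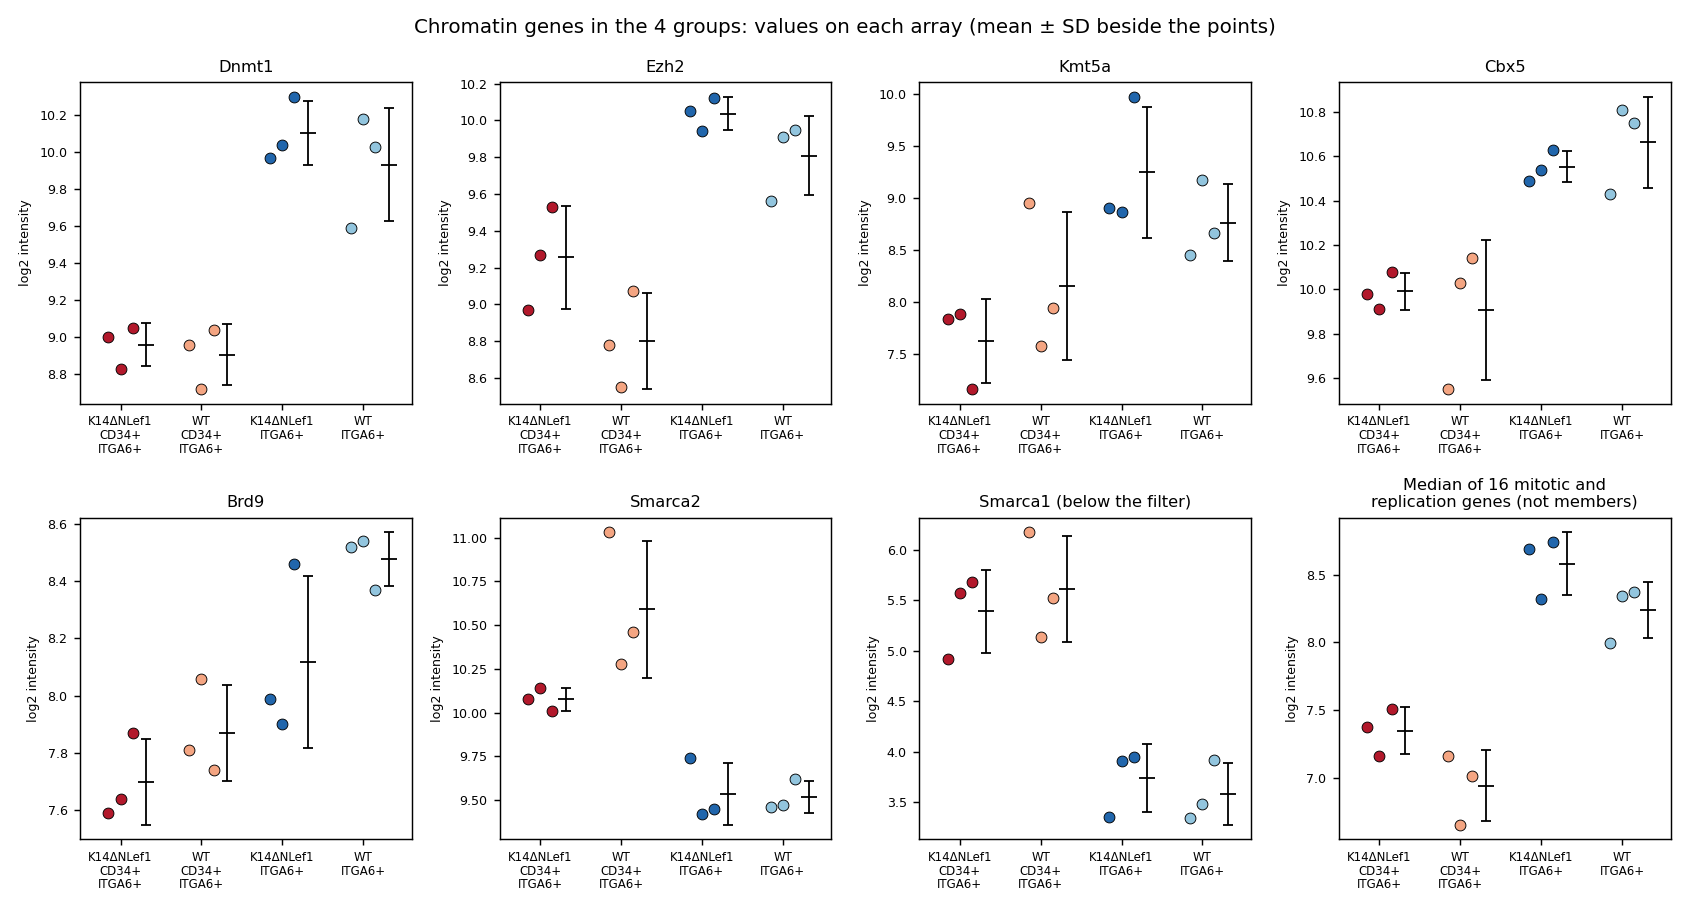
Log2 intensity on each array for the 6 members called between populations, for Smarca1, which lay below the filter, and for the median of 16 mitotic and replication genes. Each point is an array and the bars are mean ± SD of 3. Dnmt1, Ezh2 and Cbx5 sit lower and Smarca2 and Smarca1 higher in CD34+ITGA6+ arrays than in every ITGA6+ array of the same genotype.

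Ezh2, the catalytic subunit of Polycomb repressive complex 2, which methylates histone H3 on lysine K27, was called in both genotypes as well. It measured 8.97, 9.27 and 9.53 in CD34+ITGA6+ cells against 10.05, 9.94 and 10.12 in ITGA6+ cells of K14ΔNLef1 mice. In WT mice the values were 8.78, 8.55 and 9.07 in CD34+ITGA6+ cells against 9.56, 9.91 and 9.95 in ITGA6+ cells. The populations did not overlap in either genotype. Ezh2 was 1.72-fold lower in K14ΔNLef1 CD34+ITGA6+ cells (-0.78 ± 0.20, adjusted p = 0.0203) and 2.01-fold lower in WT CD34+ITGA6+ cells (-1.01 ± 0.20, adjusted p = 0.00289). The K14ΔNLef1 call was lost when any of 4 single K14ΔNLef1 arrays was left out, namely CD34+ITGA6+ replicate 1 or 2 or ITGA6+ replicate 1 or 3, where the adjusted p reached 0.0744. All 23 probe sets were lower in K14ΔNLef1 and 22 of 23 in WT CD34+ITGA6+ cells. Ezh1, the paralog that is abundant in resting cells, differed by 0.20 in K14ΔNLef1 and by -0.13 in WT mice, with neither past the threshold.

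Kmt5a (annotated as Setd8) places the single methyl group on histone H4 lysine K20 and is known to be needed for progress through S phase and mitosis. It measured 7.83, 7.88 and 7.16 in CD34+ITGA6+ cells against 8.90, 8.86 and 9.97 in ITGA6+ cells of K14ΔNLef1 mice, and 8.95, 7.57 and 7.94 against 8.45, 9.17 and 8.66 in WT mice. The K14ΔNLef1 groups were apart, while WT CD34+ITGA6+ replicate 1 lay among the ITGA6+ arrays. The difference was -1.62 ± 0.37 in K14ΔNLef1 mice (3.08-fold lower, adjusted p = 0.00947) and -0.61 ± 0.37 in WT mice (adjusted p = 0.296). Kmt5a had only 3 probe sets, which taken singly differed by -1.29 to -0.87 in K14ΔNLef1 mice, so their per-array median gave a larger difference than any of them. Averaging the probe sets instead gave -1.13. Whether the population difference itself differed between genotypes was tested and did not pass (-1.01 ± 0.52, adjusted p = 0.592).

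The other 7 histone methyltransferases were not called in any comparison. Suv39h1 and Suv39h2, which methylate lysine K9 of histone H3 in heterochromatin, averaged 7.07 and 7.23 in CD34+ITGA6+ against 7.87 and 7.54 in ITGA6+ cells of K14ΔNLef1 mice. Their differences were -0.81 ± 0.30 and -0.31 in K14ΔNLef1, and -0.23 and -0.50 ± 0.21 in WT mice. Setd7, which methylates lysine K4 of histone H3 and several other proteins, differed by -0.71 ± 0.26 in K14ΔNLef1 (adjusted p = 0.0914) and by -0.12 in WT mice. Setd1a, the methyltransferase of a COMPASS complex, differed by -0.36 in K14ΔNLef1 and -0.38 ± 0.16 in WT mice (adjusted p = 0.181 and 0.137). It had the smallest spread within groups of the tested members, with a pooled SD of 0.12. Setd5 and Setd3, an actin histidine methyltransferase whose group means lay between 10.34 and 10.54, differed by -0.22 to 0.02 in the 2 genotypes. Kmt5b (annotated as Suv420h1), which adds further methyl groups to the mark that Kmt5a sets, differed by 0.50 in K14ΔNLef1 and -0.05 in WT mice, also with no call.

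Of the chromobox readers, Cbx5 encodes HP1α, which binds methylated histone H3 in heterochromatin. It measured 9.98, 9.91 and 10.08 in CD34+ITGA6+ against 10.49, 10.54 and 10.63 in ITGA6+ cells of K14ΔNLef1 mice, and 9.55, 10.03 and 10.14 against 10.43, 10.81 and 10.75 in WT mice. All CD34+ITGA6+ arrays were below all ITGA6+ arrays. Only the WT difference passed the test, with -0.76 ± 0.19 (1.70-fold lower, adjusted p = 0.0119), while that in K14ΔNLef1 was -0.56 ± 0.19 (adjusted p = 0.0684). The WT call was lost without WT CD34+ITGA6+ replicate 1 or without WT ITGA6+ replicate 2, with adjusted p up to 0.0568. All 6 probe sets were lower in both genotypes. The difference between the genotypes in this contrast was 0.20 ± 0.27 (adjusted p = 0.954), so the single call is no sign that they differed. Cbx1, another HP1 protein, averaged 9.03 and 9.71 in K14ΔNLef1 and WT CD34+ITGA6+ cells against 9.55 and 9.82 in ITGA6+ cells. Cbx2 and Cbx8 are Polycomb subunits that bind H3 methylated on K27. Cbx2 differed by -0.76 ± 0.26 (adjusted p = 0.0688) in K14ΔNLef1 and -0.14 in WT mice, and Cbx8 by 0.55 and 0.63, with the widest spread of all tested members (pooled SD 0.55). Cbx7, also of Polycomb, was not tested, with group means from 6.81 to 7.35.

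Among bromodomain readers, Brd9, a subunit of a non-canonical SWI/SNF complex, measured 7.81, 8.06 and 7.74 in CD34+ITGA6+ cells against 8.52, 8.54 and 8.37 in ITGA6+ cells of WT mice. In K14ΔNLef1 mice it measured 7.59, 7.64 and 7.87 against 7.99, 7.90 and 8.46. Groups were apart in both genotypes. The WT difference of -0.61 ± 0.19 (1.52-fold lower) was the weakest call of the members, with an adjusted p of 0.04, and it was lost in 11 of 19 alternatives, centring and quantile normalization of the arrays among them, with adjusted p up to 0.122. The K14ΔNLef1 difference was -0.41 ± 0.19 (adjusted p = 0.179). Of its 18 probe sets, 14 were lower in K14ΔNLef1 and 17 in WT CD34+ITGA6+ cells. Their median differences, -0.26 and -0.35, were smaller than those of the gene's value. The other bromodomain genes, the BET proteins Brd2 and Brd3, the SWI/SNF subunit Brd7 and Brd8 of the TIP60 acetyltransferase complex, differed by -0.44 to 0.20 without a call.

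Smarca2 encodes BRM, an ATPase that drives SWI/SNF (BAF) complexes in place of BRG1, the product of Smarca4. It was the only member called higher in CD34+ITGA6+ cells. In WT mice it measured 11.03, 10.28 and 10.46 in CD34+ITGA6+ against 9.46, 9.47 and 9.62 in ITGA6+ cells. In K14ΔNLef1 mice it measured 10.08, 10.14 and 10.01 against 9.74, 9.42 and 9.45. Every CD34+ITGA6+ array lay above every ITGA6+ array. The difference was 1.07 ± 0.20 in WT mice (2.10-fold higher, adjusted p = 0.00179) and 0.54 ± 0.20 in K14ΔNLef1 mice (1.45-fold, adjusted p = 0.0985). With each array centred on its median, with quantile normalization, with the mean over probe sets, or without WT CD34+ITGA6+ replicate 1, the K14ΔNLef1 difference passed as well. Of 38 probe sets, 36 were higher in K14ΔNLef1 and 35 in WT CD34+ITGA6+ cells. Among 5 melanocyte markers Mitf moved in the same direction as Smarca2, with means of 10.05 in CD34+ITGA6+ against 7.34 in ITGA6+ cells of K14ΔNLef1 mice and 10.17 against 7.60 in WT mice. The other 4 melanocyte markers, Pmel, Dct, Tyrp1 and Tyr, had group means of at most 6.97 and did not pass the filter.

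Smarca1, the ATPase SNF2L of ISWI complexes, was not among the tested genes because all its values lay under the arrays' medians. It measured 4.92, 5.57 and 5.68 in CD34+ITGA6+ against 3.35, 3.91 and 3.95 in ITGA6+ cells of K14ΔNLef1 mice, and 6.17, 5.13 and 5.52 against 3.34, 3.48 and 3.92 in WT mice. The populations did not overlap in either genotype. In the fit without the filter the difference was 1.66 ± 0.29 in K14ΔNLef1 (adjusted p = 0.00324) and 2.03 ± 0.29 in WT mice (adjusted p = 4.66e-04). Of 19 probe sets, 18 were higher in both genotypes. At such low intensities a difference of logs need not be in proportion to RNA, so no fold is given.

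**Figure D2:**
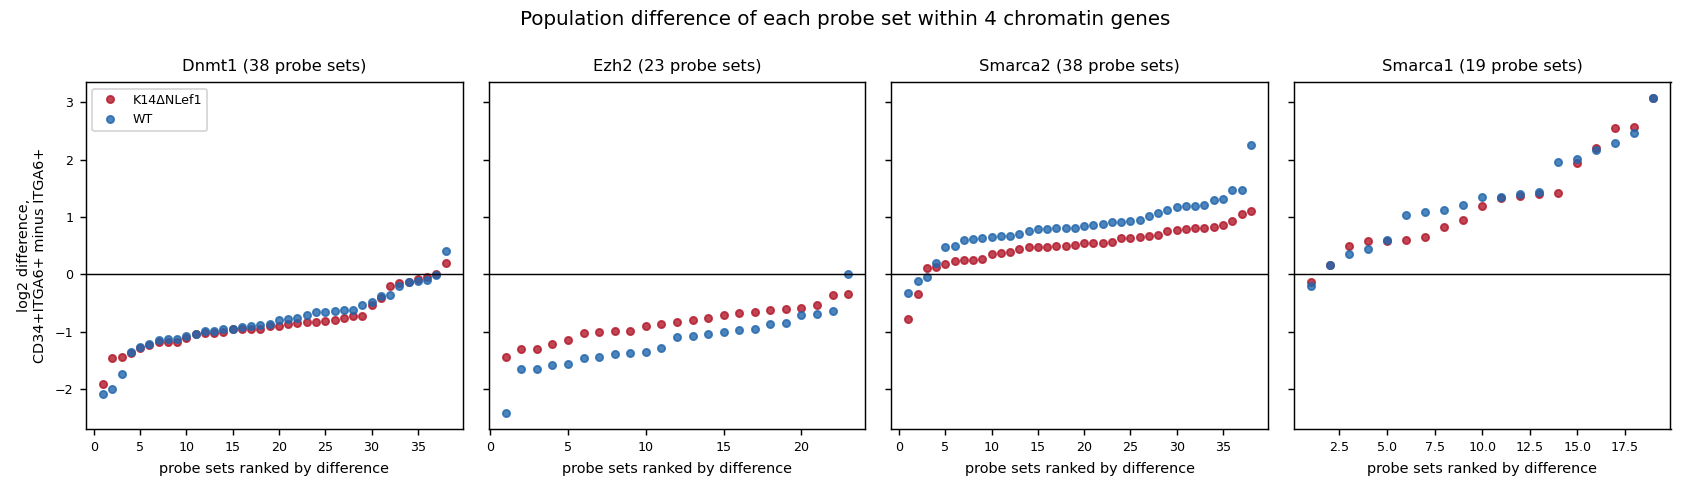
Population difference (CD34+ITGA6+ minus ITGA6+, log2, vertical axis) of each probe set of Dnmt1, Ezh2, Smarca2 and Smarca1, ranked from lowest to highest (horizontal axis), with K14ΔNLef1 in red and WT in blue. Nearly all probe sets of a gene lie on the same side of 0, such as 36 of 38 for Dnmt1 and 23 of 23 for Ezh2 in K14ΔNLef1 mice.

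The remaining SWI/SNF and ISWI genes were not called between populations. Smarca4 differed by -0.41 and -0.32, and Smarca5, the ISWI ATPase SNF2H, whose group means lay between 10.41 and 10.73, by -0.24 and -0.14 in K14ΔNLef1 and WT mice. Smarcc1, a core scaffold subunit known as BAF155, averaged 8.83 and 8.69 in CD34+ITGA6+ cells of K14ΔNLef1 and WT mice against 9.29 and 9.09 in ITGA6+ cells. The groups did not overlap in either genotype, but the differences of -0.47 ± 0.18 (adjusted p = 0.108) and -0.40 ± 0.18 (adjusted p = 0.15) missed the threshold. Its paralog Smarcc2 differed by 0.02 and 0.25. The core subunit Smarcb1, the accessory subunits Smarcd1, Smarcd2 and Smarce1 and the remodeler Smarcad1 lay between -0.47 and 0.10. Smarcd2 differed by -0.47 ± 0.28 in K14ΔNLef1 mice (adjusted p = 0.336), although 12 of its 13 probe sets were lower, with a median of -0.94. In WT mice it differed by -0.20 ± 0.28, with 9 of 13 lower and a median of -0.44. Smarcal1, an annealing helicase, and Smarcd3 did not pass the filter, with group means from 6.93 to 7.15 and from 6.67 to 7.05. Of the CHD remodelers, Chd1, which binds H3 methylated on K4, differed by -0.32 and -0.29, and Chd7 was not tested.

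Deacetylases, sirtuins and demethylases showed no call between populations. Hdac2, a catalytic subunit of the Sin3, NuRD and CoREST complexes, was nearest, with 9.40 and 9.30 in K14ΔNLef1 and WT CD34+ITGA6+ cells against 9.90 and 9.88 in ITGA6+ cells. Its difference was -0.50 ± 0.21 in K14ΔNLef1 (adjusted p = 0.141) and -0.58 ± 0.21 in WT mice (adjusted p = 0.0718). Hdac3, Hdac5, Hdac7 and Hdac8 differed by -0.40 to 0.19. The NAD-dependent deacetylases Sirt1 and Sirt2 differed by -0.26 to 0.03. Of the JmjC genes, Jmjd6, Jmjd8 and Kdm4a (annotated as Jmjd2a), a demethylase of H3 methylated on K9 and K36, differed by -0.06 to 0.31. Jmjd6 had the narrowest span of group means of the tested members, 0.09, with a pooled SD of 0.28 within groups. Members of these classes left out by the filter were Hdac6, Hdac9, Sirt3, Sirt5, Kdm4c and Kdm8, whose group means ran from 4.34 to 7.24, and Kdm4c was read by a single probe set.

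**Figure D3:**
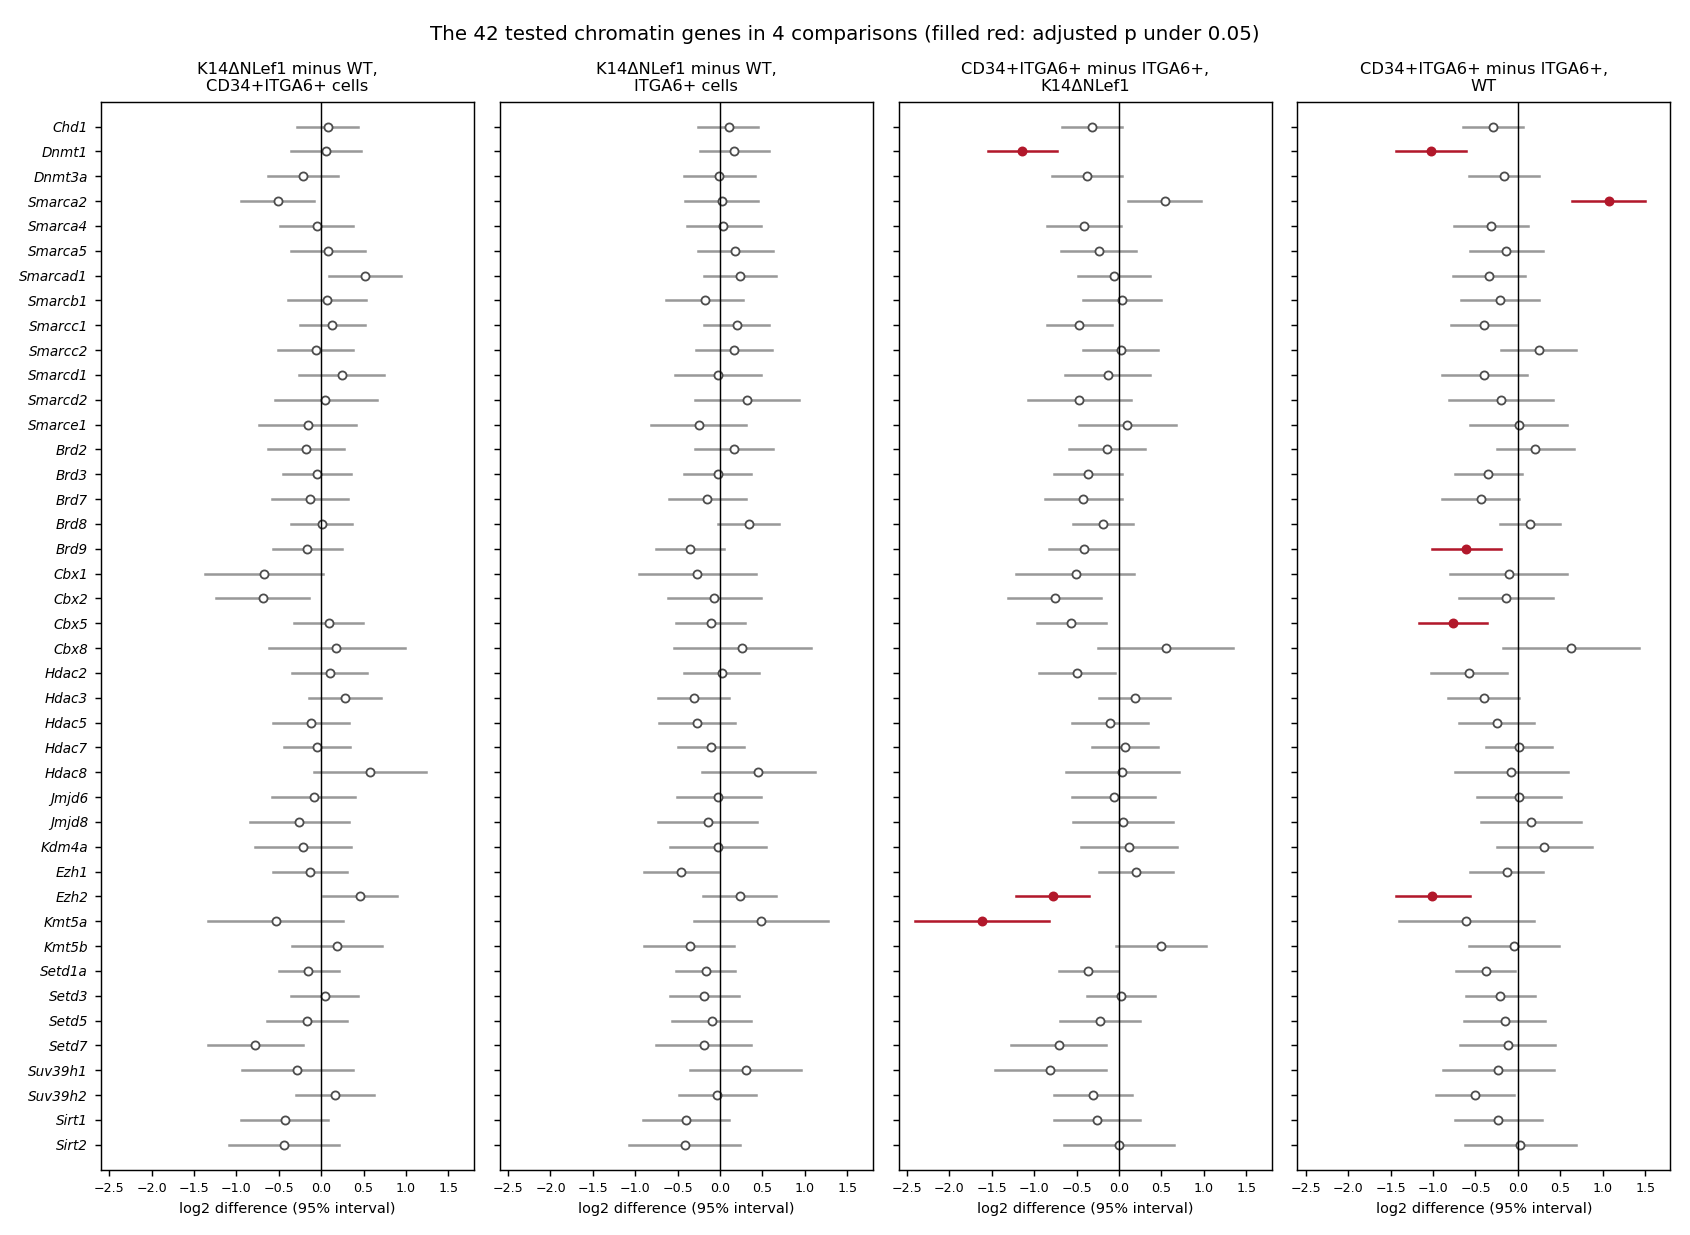
Log2 difference (horizontal axis) with its 95% interval for the 42 tested members (vertical axis, grouped by class) in the 2 genotype comparisons and the 2 population comparisons. Filled red points passed the adjusted threshold, which none did for genotype, while 3 did between populations in K14ΔNLef1 and 5 in WT mice.

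The promoters of the 6 called members are shown with the words they hold, 1 window for each. The windows are those of RefSeq on mouse GRCm38.p6, from 250 bases before to 50 after a transcript start, and 37 of the 42 tested members had at least 1. Both strands were searched for E2F-type words (TTTCCCGC, TTTCCCGG, TTTCGCGC, TTTCGCGG, TTTGCCGC, TTTGCCGG, TTTGGCGC, TTTGGCGG), the kind of site that cell cycle genes are known to carry, and for the Lef1/Tcf-type words CTTTGAA and CTTTGAT. Both searches were chosen after the values were seen, and a match is a description of the letters, not a site in use. An E2F-type word stood in 4.51% of all 32851 windows and in 5.14% of 27025 genes, and 7 of the 37 members held one (18.9%). These members had all passed the filter on dim genes, while the 27025 genes include ones that were not measured here. The share among tested genes was not counted for either kind of word, so no excess or lack can be read from these figures. Of the called members, Dnmt1, Ezh2, Cbx5 and Kmt5a each had a window with at least 1 match, Brd9 and Smarca2 had none. A Lef1/Tcf-type word stood in 8.65% of windows and in 9.88% of genes, against 1 of the 37 members (2.70%), at another start of Dnmt1. Below, each sequence runs 5′ to 3′ on the gene's strand and capitals mark E2F-type words.
Dnmt1 (chr9:20952574-20952873, minus strand, 1 of 3 starts): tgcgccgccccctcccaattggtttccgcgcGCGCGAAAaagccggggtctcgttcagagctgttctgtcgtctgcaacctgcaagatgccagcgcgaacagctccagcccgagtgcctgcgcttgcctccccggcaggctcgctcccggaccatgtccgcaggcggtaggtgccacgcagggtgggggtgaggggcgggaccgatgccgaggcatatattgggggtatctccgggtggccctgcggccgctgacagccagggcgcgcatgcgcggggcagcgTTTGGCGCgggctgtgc
Ezh2 (chr6:47594981-47595280, minus strand): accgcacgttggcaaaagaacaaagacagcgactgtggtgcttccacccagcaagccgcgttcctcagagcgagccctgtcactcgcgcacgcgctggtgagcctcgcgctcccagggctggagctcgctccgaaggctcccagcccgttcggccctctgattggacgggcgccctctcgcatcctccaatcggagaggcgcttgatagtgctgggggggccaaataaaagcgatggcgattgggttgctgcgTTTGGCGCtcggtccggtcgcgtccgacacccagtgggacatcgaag
Cbx5 (chr15:103239803-103240102, minus strand, 1 of 2 starts): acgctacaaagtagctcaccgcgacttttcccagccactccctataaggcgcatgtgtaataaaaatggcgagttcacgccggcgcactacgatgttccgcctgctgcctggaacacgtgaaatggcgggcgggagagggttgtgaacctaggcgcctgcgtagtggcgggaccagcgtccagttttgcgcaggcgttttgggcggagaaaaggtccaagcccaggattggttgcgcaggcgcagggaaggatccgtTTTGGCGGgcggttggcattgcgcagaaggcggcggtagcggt
Kmt5a (chr5:124439680-124439979, plus strand, 1 of 3 starts): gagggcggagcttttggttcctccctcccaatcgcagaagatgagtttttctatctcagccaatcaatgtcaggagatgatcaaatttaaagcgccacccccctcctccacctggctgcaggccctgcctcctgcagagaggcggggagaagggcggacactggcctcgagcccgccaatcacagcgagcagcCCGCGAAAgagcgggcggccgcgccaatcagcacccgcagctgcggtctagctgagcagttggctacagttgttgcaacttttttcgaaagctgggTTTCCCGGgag
Brd9 (chr13:73937561-73937860, plus strand, 1 of 2 starts): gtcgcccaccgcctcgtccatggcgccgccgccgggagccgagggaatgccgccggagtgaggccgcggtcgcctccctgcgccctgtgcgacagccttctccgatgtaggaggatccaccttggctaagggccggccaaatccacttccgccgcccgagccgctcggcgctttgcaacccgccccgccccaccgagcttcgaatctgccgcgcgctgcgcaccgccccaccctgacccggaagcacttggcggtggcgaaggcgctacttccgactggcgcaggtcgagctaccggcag
Smarca2 (chr19:26604910-26605209, plus strand): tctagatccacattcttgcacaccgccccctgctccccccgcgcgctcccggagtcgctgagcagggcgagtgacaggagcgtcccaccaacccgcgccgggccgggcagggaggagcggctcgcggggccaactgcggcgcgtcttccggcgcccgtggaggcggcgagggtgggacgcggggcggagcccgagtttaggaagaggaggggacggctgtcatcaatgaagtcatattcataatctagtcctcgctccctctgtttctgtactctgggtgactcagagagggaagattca

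In these windows, counted from 1 at the start base, the match began at 4 in Ezh2 and at 8 in Cbx5, so that both lay just downstream of the start. Dnmt1 had matches that began at 34 and at -219, and Kmt5a at 40 and at -57. The Ezh2 word and the downstream word of Dnmt1 were the same, TTTGGCGC. Brd9, called lower like these 4, had no match at either of its starts, nor had Smarca2, called higher. The number of CG dinucleotides was 40 in the Brd9 window and 29 in that of Smarca2, beside 29 in that of Cbx5, 33 in that of Dnmt1, 31 in that of Ezh2 and 18 in that of Kmt5a.

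Cell division genes moved between the populations as well. Of 22 listed mitotic and replication genes, 16 were tested, and the CD34+ITGA6+ gate gave 12 called lower in K14ΔNLef1 and 13 in WT mice, with median differences of -1.17 and -1.36 and no gene higher. The median of the 16 lay between 7.16 and 7.51 on the arrays of K14ΔNLef1 CD34+ITGA6+ cells and between 6.65 and 7.16 on those of WT CD34+ITGA6+ cells, against 8.32 to 8.74 in K14ΔNLef1 and 8.0 to 8.37 in WT ITGA6+ cells. This is the direction in which Dnmt1, Ezh2, Kmt5a and Cbx5 moved, and the part of cell division in their differences was not tested. Some markers of other epidermal cells also moved between populations. The summed linear intensity of the 4 measured suprabasal markers of 5 listed (Krt1, Krt10, Ivl and Lor, the last pair below the filter) was 3681 to 4436 in CD34+ITGA6+ against 5268 to 5732 in ITGA6+ cells of K14ΔNLef1 mice, and 1916 to 4177 against 7673 to 7900 in WT mice. Krt1 and Krt10 were called lower in WT mice (-2.15 ± 0.32 and -1.43 ± 0.24) but not in K14ΔNLef1 mice (-0.60 ± 0.32 and -0.42 ± 0.24). For the 4 measured sebocyte markers of 5 listed the sum was 607 to 1097 against 1652 to 2244 in K14ΔNLef1 mice, and 729 to 1138 against 1480 to 1582 in WT mice. Of these only Scd1 was called, with differences of -2.13 ± 0.30 in K14ΔNLef1 and -1.68 ± 0.30 in WT mice. Fasn (-0.34 and -0.15) and Plin2 (-0.69 and 0.26) were not called, and Mc5r was below the filter. The summed intensity of the 5 melanocyte markers, most of it Mitf, was 1005 to 1559 against 383 to 445 in K14ΔNLef1 mice, and 1402 to 1581 against 450 to 527 in WT mice. Their part in the differences was not tested.

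For 4 pairs of related genes a difference was taken within each array, which leaves out the scaling of the arrays. The pairs were chosen after their values were seen, each with a called member and an uncalled relative. That the 2 genes of a pair moved apart thus follows from the choice, and it says nothing of related genes in general. They are described with no test, and only changes between groups can be read, since the probes of a pair differ in brightness. Smarca2 minus Smarca4 was 1.24, 1.53 and 1.30 in CD34+ITGA6+ cells against 0.72, 0.36 and 0.15 in ITGA6+ cells of K14ΔNLef1 mice. In WT mice it was 1.81, 1.69 and 1.96 against 0.32, 0.52 and 0.45. The balance between the SWI/SNF ATPases was thus shifted to Smarca2 in CD34+ITGA6+ cells by 0.95 in K14ΔNLef1 and 1.39 in WT mice, with no overlap in either genotype. Ezh2 minus Ezh1 was shifted by -0.98 and -0.87, Dnmt1 minus Dnmt3a by -0.76 and -0.86, and Kmt5a minus Kmt5b by -2.12 and -0.55. The populations did not overlap for the pairs of Ezh2 and Dnmt1 in either genotype. For the Kmt5a pair they did not in K14ΔNLef1 mice but did in WT mice.

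**Figure D4:**
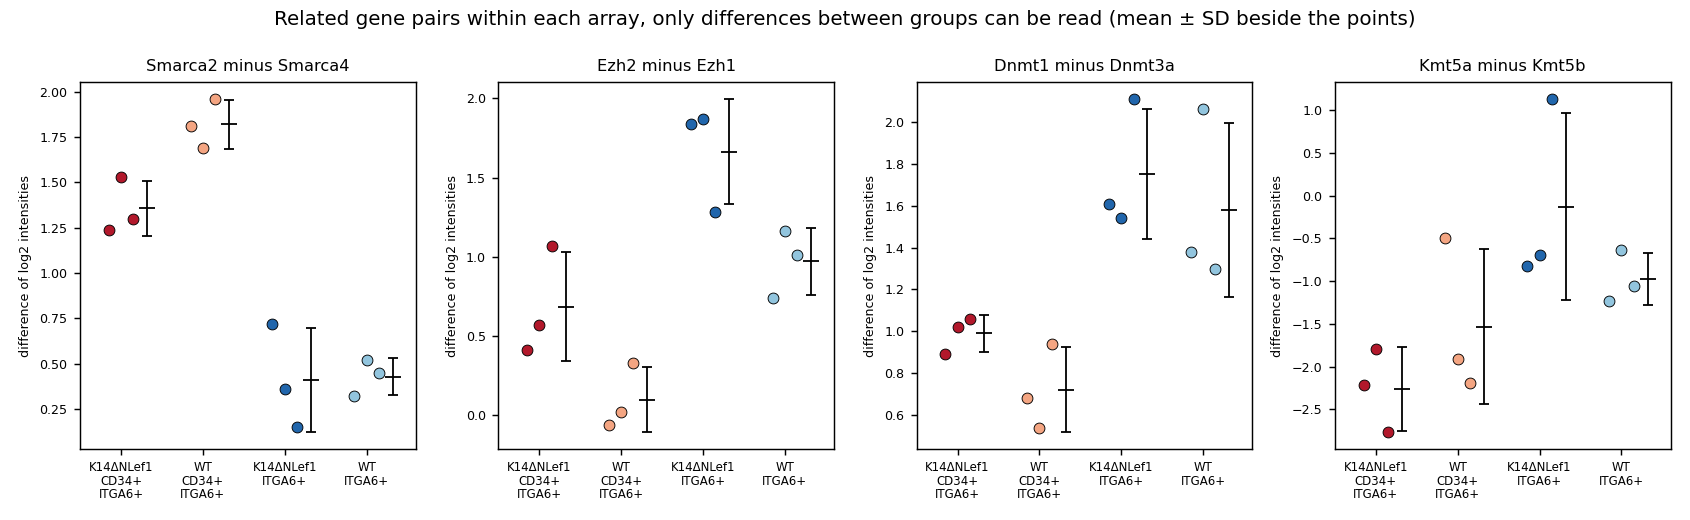
Difference of log2 intensities between related genes (vertical axis) on each array, by group, with mean ± SD of 3 beside the points. Smarca2 minus Smarca4 is higher in CD34+ITGA6+ cells, by 0.95 in K14ΔNLef1 and 1.39 in WT mice, and the other 3 pairs are lower.

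Partners of the called factors were taken from lists of other chromatin genes. Of the DNA methylation partners, 2 of 5 tested were called lower in CD34+ITGA6+ cells in both genotypes and none higher. Uhrf1, which brings Dnmt1 to newly replicated DNA, differed by -1.64 ± 0.36 in K14ΔNLef1 (adjusted p = 0.00731) and -2.11 ± 0.36 in WT mice (adjusted p = 8.02e-04). Hells, a remodeler that aids DNA methylation, differed by -1.21 ± 0.28 (adjusted p = 0.0104) and -1.95 ± 0.28 (adjusted p = 1.98e-04). Uhrf1 averaged 7.99 in CD34+ITGA6+ against 9.63 in ITGA6+ cells of K14ΔNLef1 mice, and 8.07 against 10.17 in WT mice. Chaf1a, a subunit of the chaperone that places histones behind the replication fork, was the 1 called of 14 other remodelers and chaperones tested, with -0.97 ± 0.25 in K14ΔNLef1 and -1.0 ± 0.25 in WT mice. Hat1, which acetylates new histone H4, was the 1 called of 6 acetyltransferases, with -1.15 ± 0.26 in K14ΔNLef1 and -0.85 ± 0.26 in WT mice.

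Of 20 tested Polycomb subunits other than members, 3 were called in each genotype (15%), near the 12.9% of all genes in K14ΔNLef1 and 17.2% in WT mice. Pcgf5, a PRC1 subunit, was called lower, with differences of -1.24 ± 0.27 in K14ΔNLef1 and -0.95 ± 0.27 in WT mice. Phf1, a PRC2 accessory subunit, was higher by 0.80 ± 0.19 and 1.01 ± 0.19. Pcgf6 was called only in K14ΔNLef1 mice (-0.84 ± 0.25) and Jarid2, which guides PRC2 to its targets, only in WT mice (-0.62 ± 0.20). Eed, which PRC2 needs for its activity, and the other tested subunits were not called. Among 15 tested deacetylase partners and Groucho corepressors, Mta2 of the NuRD complex (-0.60 ± 0.18 and -0.77 ± 0.18) and the corepressor Tle3 (-0.75 ± 0.21 and -1.10 ± 0.21) were called lower in K14ΔNLef1 and WT mice. Of 12 tested SWI/SNF subunits outside the Smarc family, a list that also holds Brd7 and Brd9, Actl6a, which is known to keep epidermal progenitors from differentiating, was called lower in K14ΔNLef1 mice (-0.77 ± 0.18, adjusted p = 0.00928). None of 10 trithorax and other lysine methyltransferases was called. By list, the share called in each genotype was 40% for DNA methylation partners, 16.7% for acetyltransferases and 13.3% for deacetylase partners and corepressors. It was 8.33% for SWI/SNF subunits, where the call in WT mice was that of the member Brd9. For other remodelers and chaperones it was 7.14%, beside the same 12.9% and 17.2% of all genes.

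**Figure D5:**
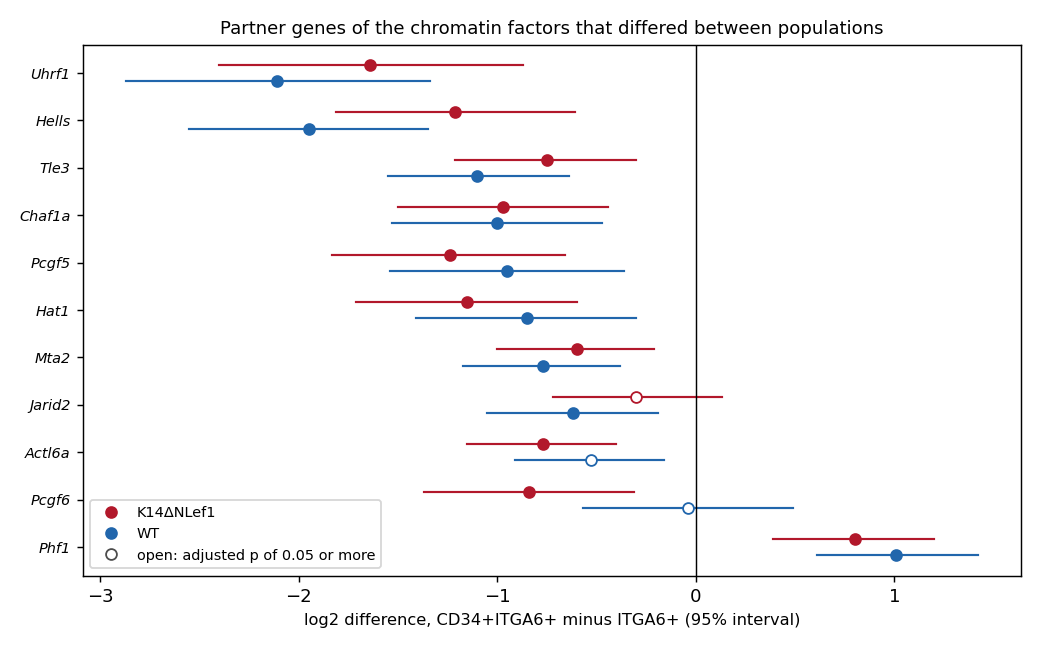
Population difference (CD34+ITGA6+ minus ITGA6+, log2, horizontal axis) with its 95% interval for the 11 partner genes called in at least 1 genotype (vertical axis), with K14ΔNLef1 in red and WT in blue and open points where the adjusted p was 0.05 or more. Uhrf1 and Hells lie farthest below 0 in WT mice, and Phf1 alone lies above 0.

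The genotype comparison asked whether ΔNLef1 alters these factors within a population. No member was called in CD34+ITGA6+ cells, where limma called 1.91% of all tested genes, and none in ITGA6+ cells, where it called 5.29%. These shares rest in part on single arrays: 71 genes in place of 109 were called in CD34+ITGA6+ cells without K14ΔNLef1 replicate 3, and 192, 196 or 201 in place of 302 in ITGA6+ cells without K14ΔNLef1 replicate 3, WT replicate 3 or K14ΔNLef1 replicate 1. At an unadjusted p under 0.05 there were 5 members in CD34+ITGA6+ cells (11.9%, against 10% of all genes) and 1 in ITGA6+ cells (2.38%, against 15.2%). The members' median difference was -0.06 and -0.03, beside -0.03 over all genes in both. In CD34+ITGA6+ cells the 95% interval lay within 1 of 0 on the log2 scale for 36 of 42 members, all but Cbx1, Cbx2, Hdac8, Kmt5a, Setd7 and Sirt2. In ITGA6+ cells it did so for 38, all but Cbx8, Hdac8, Kmt5a and Sirt2.

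In CD34+ITGA6+ cells, Setd7 had the lowest p. It measured 8.08, 6.96 and 7.24 in K14ΔNLef1 against 7.99, 8.12 and 8.51 in WT mice, a difference of -0.78 ± 0.26 (adjusted p = 0.218). All 9 probe sets were lower, but K14ΔNLef1 replicate 1 lay inside the WT range, and without that array the difference was -1.11 with an adjusted p of 0.0238. Cbx2 measured 7.29, 6.74 and 6.74 in K14ΔNLef1 against 8.2, 7.34 and 7.30 in WT mice, with no overlap by a narrow margin and a difference of -0.69 ± 0.26 (adjusted p = 0.303). Of its 6 probe sets 5 were lower, with a smaller median difference of -0.24. Smarcad1, a remodeler that restores silent chromatin after replication, measured 9.13, 8.82 and 8.82 against 8.19, 8.25 and 8.79. Its difference was 0.52 ± 0.20 (adjusted p = 0.325), and it passed with the mean over probe sets (0.71, adjusted p = 0.0256). All 25 probe sets of Smarcad1 were higher with the transgene, and their median difference was 0.75. Smarca2 was 10.08, 10.14 and 10.01 in K14ΔNLef1 against 11.03, 10.28 and 10.46 in WT mice, with 36 of 38 probe sets lower (-0.51 ± 0.20, adjusted p = 0.345). Ezh2 had all 23 probe sets higher in K14ΔNLef1 cells but overlapping groups (0.46 ± 0.20, adjusted p = 0.443). Probe sets of a gene share the same RNA and are not replicates.

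For the rest of the 10 lowest p in that comparison, Cbx1 differed by -0.68 ± 0.32, Hdac8 by 0.58 ± 0.31, Sirt1 by -0.43 ± 0.24, Sirt2 by -0.44 ± 0.30 and Kmt5a by -0.53 ± 0.37, with adjusted p of 0.523 to 0.754. Groups did not overlap for 4 members (9.52%, against 12.7% of all genes, 4.90% higher and 7.75% lower), with Hdac8 and Smarcad1 higher and Cbx2 and Smarca2 lower on every K14ΔNLef1 array. Hdac8, a class I deacetylase that also acts on cohesin, measured 7.81, 7.49 and 7.36 in K14ΔNLef1 against 7.03, 7.03 and 6.87 in WT CD34+ITGA6+ cells. In ITGA6+ cells it measured 7.06, 7.85 and 7.61 in K14ΔNLef1 against 7.18, 6.26 and 7.73 in WT mice, which overlapped (0.45 ± 0.31, adjusted p = 0.579).

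In ITGA6+ cells, Ezh1 had the lowest p, at 8.22, 8.07 and 8.83 in K14ΔNLef1 against 8.81, 8.76 and 8.94 in WT mice (-0.46 ± 0.20, adjusted p = 0.289). Brd8 was 8.43, 8.61 and 8.48 against 8.21, 8.06 and 8.24 (0.34 ± 0.17, adjusted p = 0.36, or 0.0439 with the mean over probe sets). Sirt1 was 8.64, 8.04 and 8.44 against 8.91, 8.68 and 8.73 (-0.40 ± 0.24, adjusted p = 0.485). Smarcad1 differed by 0.23 ± 0.20 (adjusted p = 0.692), although 24 of its 25 probe sets were higher, and their median difference was 0.72. Groups did not overlap for Brd8, Smarcc1 and Sirt1 (7.14%, against 22.6% of all genes, 9.40% higher and 13.2% lower). Brd9, Hdac3, Kmt5b, Hdac8, Sirt2, Kmt5a and Hdac5 followed with differences from -0.41 to 0.48 and adjusted p of 0.406 to 0.644. Sirt1, a deacetylase of histones and transcription factors, differed by -0.43 in CD34+ITGA6+ and -0.40 in ITGA6+ cells, and Sirt2 by -0.44 and -0.41, without a call in either. Probe sets taken singly gave smaller median differences in the same order, -0.09 and -0.17 for Sirt1 and -0.15 and -0.36 for Sirt2. The within-array difference of Ezh2 and Ezh1 was higher in K14ΔNLef1 mice in both populations, by 0.59 and 0.69, with no overlap, but only by 0.25 on average when probe sets were averaged.

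Chd7, a CHD remodeler known for its role in neural crest, was below the filter, with 6.12, 6.56 and 5.56 in K14ΔNLef1 against 6.85, 6.58 and 6.73 in WT CD34+ITGA6+ cells. In ITGA6+ cells it was at 6.63, 6.36 and 6.19 in K14ΔNLef1 against 7.11, 7.22 and 7.61 in WT mice. All K14ΔNLef1 arrays were lower than the WT arrays of their population. Without the filter the difference was -0.64 ± 0.24 (adjusted p = 0.388) and -0.92 ± 0.24 (adjusted p = 0.0648). Mitotic and replication genes had median differences of 0.41 in CD34+ITGA6+ cells, where Cdk1 was called, and 0.48 in ITGA6+ cells, where Bub1b, Cdk1, Tpx2 and Ube2c were called, all higher in K14ΔNLef1 mice. Of the partner lists, Phc1, a PRC1 subunit, was the only gene called for genotype, with 0.92 ± 0.21 in ITGA6+ cells (adjusted p = 0.0185).

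Whether the genotype effect differed by population was tested as well, and no member was called, beside 1.51% of all genes. At an unadjusted p under 0.05 limma gave 0 of 42, against 9.54% of all genes. Hdac3, the deacetylase of the NCoR and SMRT corepressor complexes, came closest. It averaged 7.87 ± 0.30 in K14ΔNLef1 and 7.59 ± 0.08 in WT CD34+ITGA6+ cells, and 7.69 ± 0.26 in K14ΔNLef1 and 8.0 ± 0.10 in WT ITGA6+ cells (0.59 ± 0.28, adjusted p = 0.525). Kmt5a (-1.01 ± 0.52), Smarca2 (-0.53 ± 0.29), Cbx2 (-0.62 ± 0.36) and Setd7 (-0.59 ± 0.37) followed, then Kmt5b, Brd8, Suv39h1, Brd2 and Ezh1, which lay between -0.58 and 0.55. The 95% interval lay within 1 of 0 for 31 of 42 members. So the weaker Smarca2 difference between populations in K14ΔNLef1 mice, and the calls of Kmt5a, Cbx5 and Brd9 in 1 genotype only, were not shown to depend on genotype.

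Current names add 6 genes of the same families that the annotation lists under other symbols, of which 5 were tested: Kdm1b, Kdm2a, Kdm2b, Kdm5c and Kdm6a. Kdm6a (annotated as Utx), which removes the mark that Ezh2 writes, was called lower in CD34+ITGA6+ cells of K14ΔNLef1 mice (8.30 ± 0.08 against 9.31 ± 0.20 in ITGA6+ cells, -1.01 ± 0.24, adjusted p = 0.0112). In WT mice it averaged 8.52 ± 0.49 in CD34+ITGA6+ and 9.18 ± 0.28 in ITGA6+ cells (-0.67 ± 0.24, adjusted p = 0.0698). Ezh2 and Kdm6a, writer and eraser of the same mark, were thus both called lower in K14ΔNLef1 CD34+ITGA6+ cells. The sixth gene, the Y-linked Kdm5d, had group means of 5.66 to 5.81 in these female mice and was not tested.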

How the data were processed

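The authors normalised the arrays by RMA, and the deposited values are linear intensities per probe set. Affymetrix Power Tools and the mm9 build are listed in the submitters' notes without versions. RMA fits arrays to each other, which can remove a change shared by most genes. RNA was amplified before labelling, which can alter proportions. The log2 of each intensity was taken. Of 114330 probe sets, 109796 carried exactly 1 symbol in the platform annotation, and 1229 older symbols were updated through RefSeq GRCm38.p6. A model of the 4 group means over the 12 arrays was fitted in limma 3.58.1 (R 4.3.3), with Benjamini-Hochberg adjustment over 5713 genes, after tests on simulated data. The labels call arrays of a group biological replicates. Groups follow the titles, since the description field of the CD34+ITGA6+ samples names basal cells. Arrays of a group correlated with r of 0.909 to 0.936. Members were matched on the annotated symbol, and Cbx6, Jmjd7 and Setd6, only on probe sets shared with other genes, were left out. Members, classes and lists were chosen with earlier results of these data known. Named were Lef1, Cd34, Itga6, all called members, the 10 lowest p in each comparison, the brightest and dimmest member of each class, members left out by the filter, and up to 5 called genes of each other list. Alternatives were other scalings, the mean over probe sets, the filter, variance moderation, the arrays fitted, a replicate block and leaving out each array.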

Additional observations from a re-analysis of the deposited data

How the results depend on the processing

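Of the 8 calls of members, those of Dnmt1 in both genotypes, Ezh2 and Smarca2 in WT and Kmt5a in K14ΔNLef1 mice passed in all 20 alternatives, while those of Ezh2 in K14ΔNLef1, Cbx5 in WT and Brd9 in WT mice did not. The largest shift came from taking the mean in place of the median of a gene's probe sets, which called 1 member for genotype in the CD34+ITGA6+ gate and 2 in the ITGA6+ gate (0 in both with the median), and 8 between populations in K14ΔNLef1 (3 with the median) and 8 in WT mice (5). Calls over all genes rose too, to 174 for genotype in the CD34+ITGA6+ gate (109 with the median), 404 in the ITGA6+ gate (302), 978 between populations in K14ΔNLef1 (738), 1292 in WT mice (982) and 144 for the difference of effects (86). The mean also gave Kmt5b a genotype difference of 0.03 in ITGA6+ cells (-0.36 with the median), the only named result that reversed in any alternative. The cause was not tested. The stricter filter, which tested 2330 genes, called 173 of all genes for genotype in ITGA6+ cells (302 in the main analysis), 450 and 518 between populations in K14ΔNLef1 and WT mice (738 and 982) and 49 for the difference of effects (86). With only the arrays compared, 70 genes were called for genotype in CD34+ITGA6+ cells. When each array was left out in turn, the members called were 0 to 1 for genotype in CD34+ITGA6+ cells (1 without K14ΔNLef1 CD34+ITGA6+ replicate 1, with 84 of all genes), 2 to 6 between populations in K14ΔNLef1 mice (6 without WT CD34+ITGA6+ replicate 1, with 770 of all genes, and 5 without K14ΔNLef1 CD34+ITGA6+ replicate 1, with 706) and 3 to 6 in WT mice (3 without WT CD34+ITGA6+ replicate 1 or WT ITGA6+ replicate 2, with 847 and 748 of all genes). Of 42 named results that were not called, 11 passed in at least 1 alternative.

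The titles number replicates 1 to 3 in every group. Of 18 pairs of arrays with the same number, 6 had deviations from the group means that correlated over 0.1. Correlations ran from -0.131 to 0.232 for pairs with the same number and from -0.181 to 0.166 for pairs with different numbers. Of 12 arrays, 5 were closest to their own number. Correlations over 3 arrays a group cannot decide whether arrays of the same number share more than that number. With a replicate block, the members called were 0 for genotype in both populations, 3 and 5 between populations in K14ΔNLef1 and WT mice, and 0 for the difference of effects, with 113, 290, 795, 1024 and 90 of all genes in the same order. Brd9 in WT mice then missed the threshold (adjusted p = 0.0515) and Hdac2 in WT mice passed it (adjusted p = 0.046). With 3 arrays a group, dim genes and those read by few probe sets, such as Kmt5a, are the least precise.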
